A study of Mus musculus with 14 samples.

Results

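The genes described here are 9 neighbours of Bmi1 on mouse chromosome 2: Nebl, Mllt10, Dnajc1, Commd3, Pip4k2a, Armc3, Msrb2, Ptf1a and Otud1. They were taken by gene name, with every probe that carries one of these names in the scanner output, which gave 9 of 34821 gene names and 11 of 55681 probes, 3 for Nebl and 1 for each other gene. On build mm9, used by the files, these probes run over chr2:17268361-19581313 on both sides of the Bmi1 probes. Expression was measured in peritoneal B-1a cells of Bmi1 KO mice (7 arrays) and of WT mice (7 arrays), 1 sample per one-colour array. The arrays came from 2 experiment sets, read from the numbering style of the sample titles: set 1 held 3 KO and 3 WT arrays, and set 2 held 4 KO and 4 WT arrays. The sources used here do not give the KO allele, the strain, the age of the mice, how cells were sorted or whether animals were pooled. The p-values therefore speak of the spread among these arrays, part of which may be technical.

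The Bmi1 protein belongs to Polycomb repressive complex 1, which ubiquitylates histone H2A and keeps target genes silent. In mammals the Polycomb complexes bind mainly at CpG islands, the CpG-rich promoters of many genes. B-1a cells are self-renewing, CD5-bearing B cells of the body cavities that make natural antibody. The neighbours of a targeted gene are of interest in any knockout line, since an engineered allele is inherited together with the DNA around it. Commd3 lies next to Bmi1 on the same strand, and in humans transcripts that read through both genes are annotated.

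The arrays differed in signal. Between 20.6% and 56.6% of probes were well above background on KO arrays (40.6 ± 14.4, SD, n = 7), against 43.5% to 63.3% on WT arrays (52.3 ± 7.25, SD, n = 7), with an exact two-sided permutation p of 0.0457. Pairs of KO arrays correlated at r = 0.55 to 0.79 over probes, and pairs of WT arrays at 0.71 to 0.93. No spot was saturated. All 8 B cell markers were above background on every array. The B-1a list had 4 of 6 genes above background on at least 4 KO arrays and 6 of 6 on at least 4 WT arrays. The macrophage list had 5 of 7 genes detected in both genotypes, with Emr1, Csf1r and Itgam on every array. Lyz2 was above background on 4 KO and 7 WT arrays and Cd14 on 4 KO and 5 WT arrays. Timd4 was so on only 1 KO and 2 WT arrays, and Gata6 on 2 KO and 2 WT arrays. The T cell list had 4 of 6 in KO and 5 of 6 in WT. The neutrophil list had 1 of 3 in each genotype (Ly6g on every array, S100a9 on 1 KO and 2 WT arrays and S100a8 on 0), and the mast cell list 1 of 4 in each. The NK cell and mesothelium lists had 0 genes above background on at least 4 arrays in either genotype. Levels in bulk RNA do not tell fewer cells of a type from less RNA per cell. Of the Bmi1 probes, the one at chr2:18607531-18607590 was above background on 6 KO and 6 WT arrays, and its level differed by 1.10 log2, KO minus WT (limma adjusted p = 0.547). The Bmi1 probe at chr2:18607987-18608046 was above background on 5 KO and 3 WT arrays, with a difference of 3.74 log2 (95% interval 1.91 to 5.58). Its unadjusted limma p was 0.0005 (adjusted p = 0.175), and the exact permutation p was 0.00286. The difference was 3.43 log2 in set 1 and 3.98 in set 2. On this probe 6 of 7 KO arrays lay above every WT array, including set 2 replicate 2, where it was not above background. In set 2 it was also not above background on KO replicate 1 and WT replicates 2 to 4. The median level of probes not above background was -2.95 and -1.51 on KO replicates 1 and 2 of set 2. It was -5.08 to -3.99 on WT replicates 2 to 4 of set 2. The part of this floor in the difference was not tested. Which stretch of Bmi1 the allele removes is not given, so these probes do not check the labels.

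Each neighbour was read through a 60-base probe, and the letters below are what each level rests on. The Commd3 probe is shown whole because Commd3 is the nearest neighbour. The capitals mark a TGA triplet that ends a frame of 16 open codons.
Commd3, chr2:18597631-18597690, plus strand: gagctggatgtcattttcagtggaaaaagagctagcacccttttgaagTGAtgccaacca
The other probes that were detected are shown by their first 30 bases, so that each gene can be traced to the part of the transcript that was measured.
Nebl, chr2:17268361-17268420, minus strand: cttgaacacacacctacaaagataaactgc
Mllt10, chr2:18132538-18132597, plus strand: caggggaggatgccacacactcccttgtaa
Dnajc1, chr2:18138907-18141091, minus strand: cgtctaagagtaaggaagactgcattgcta
Pip4k2a, chr2:18765789-18765848, minus strand: ttaacagctacctgatatttcccagcatcg
Msrb2, chr2:19316431-19316490, plus strand: tggatgaaacttgtggcttcttatccaaaa
Otud1, chr2:19581254-19581313, plus strand: ggtgagcctactgctatttaaaatttgctg
The Dnajc1 probe spans more genome than its 60 bases, so its letters come from more than 1 piece of the gene. The exon or UTR that each probe lies in was not looked up, as no annotation of mm9 was used here.

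Most of the neighbours were detected in B-1a cells. Detection is given as the number of arrays on which a probe was marked well above background, and no probe's level is set against another probe's. Dnajc1 was detected on 6 of 7 KO and 7 of 7 WT arrays. Mllt10, Commd3 and Pip4k2a were each detected on 5 of 7 KO and 7 of 7 WT arrays. Otud1 was detected on 3 of 7 KO and 7 of 7 WT arrays. The best Nebl probe reached 5 of 7 KO and 6 of 7 WT arrays. Msrb2 was detected on 4 of 7 arrays of each genotype. The remaining probes were mostly dim. Armc3 was above background on 1 KO and 3 WT arrays, Ptf1a on 0 KO and 1 WT array, and the other Nebl probes on 1 KO and 0 WT arrays and on 1 KO and 1 WT array. Neighbours in this order differ by only a few arrays.

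Counted per array, 6, 7 and 5 of the 9 genes were above background on the KO arrays of set 1. On the KO arrays of set 2 the counts were 4, 4, 2 and 7, while each of the 7 WT arrays had 7. The mean was 5 ± 1.83 genes in KO and 7 ± 0 in WT (SD, n = 7 each; exact two-sided permutation p = 0.0286). No KO array had more detected neighbours than a WT array. The 4 KO arrays with the fewest detected neighbours were also the 4 with under 40% of all probes above background. The part of that lower overall signal in the count was not tested.

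**Figure D1:**
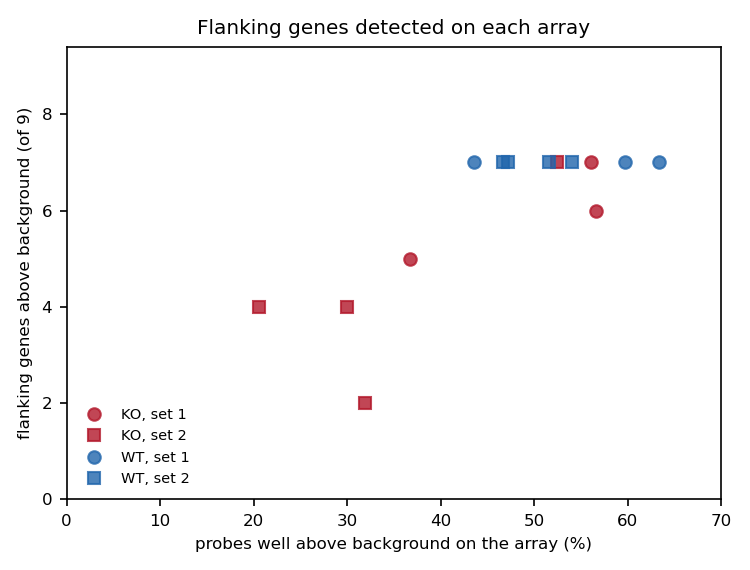
Number of the 9 genes above background on each array (vertical axis) against the percentage of all probes above background on it (horizontal axis); red marks Bmi1 KO and blue WT, circles set 1 and squares set 2. All 7 WT arrays sit at 7 genes, and the KO arrays spread over 2 to 7.

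No neighbour of Bmi1 passed the test between genotypes. A probe entered the test if it was above background on at least 4 of 7 arrays of a genotype, which kept 7 of the 11 probes (1 each for Nebl, Mllt10, Dnajc1, Commd3, Pip4k2a, Msrb2 and Otud1) among 29679 in all. Otud1 was kept only through its WT arrays. In limma with experiment set as a covariate, 0 of 7 had an adjusted p under 0.05, against 9 of 29679 probes in all, or 0.0303%. At an unadjusted p under 0.05, 1 of 7 (Msrb2) was higher in KO, against 8.17% of all probes, and 0 of 7 were lower in KO, against 5.37% of all probes. The median KO minus WT difference was 0.44 log2 over the 7 probes and 0.32 log2 over all probes. Relative to the median of all probes, 4 of the 7 lay above and 3 below. The differences themselves depend on the scaling. Scaled to the 7057 probes above background on all arrays, the median of all probes was -0.86 log2, and the differences of Nebl, Dnajc1 and Commd3 were -0.51, -0.47 and -0.74 log2, while that of Msrb2 was 0.79 (limma adjusted p = 0.554). Values relative to all probes hardly move with this scaling. Each level below is log2 intensity relative to the 75th percentile of its array.

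**Figure D2:**
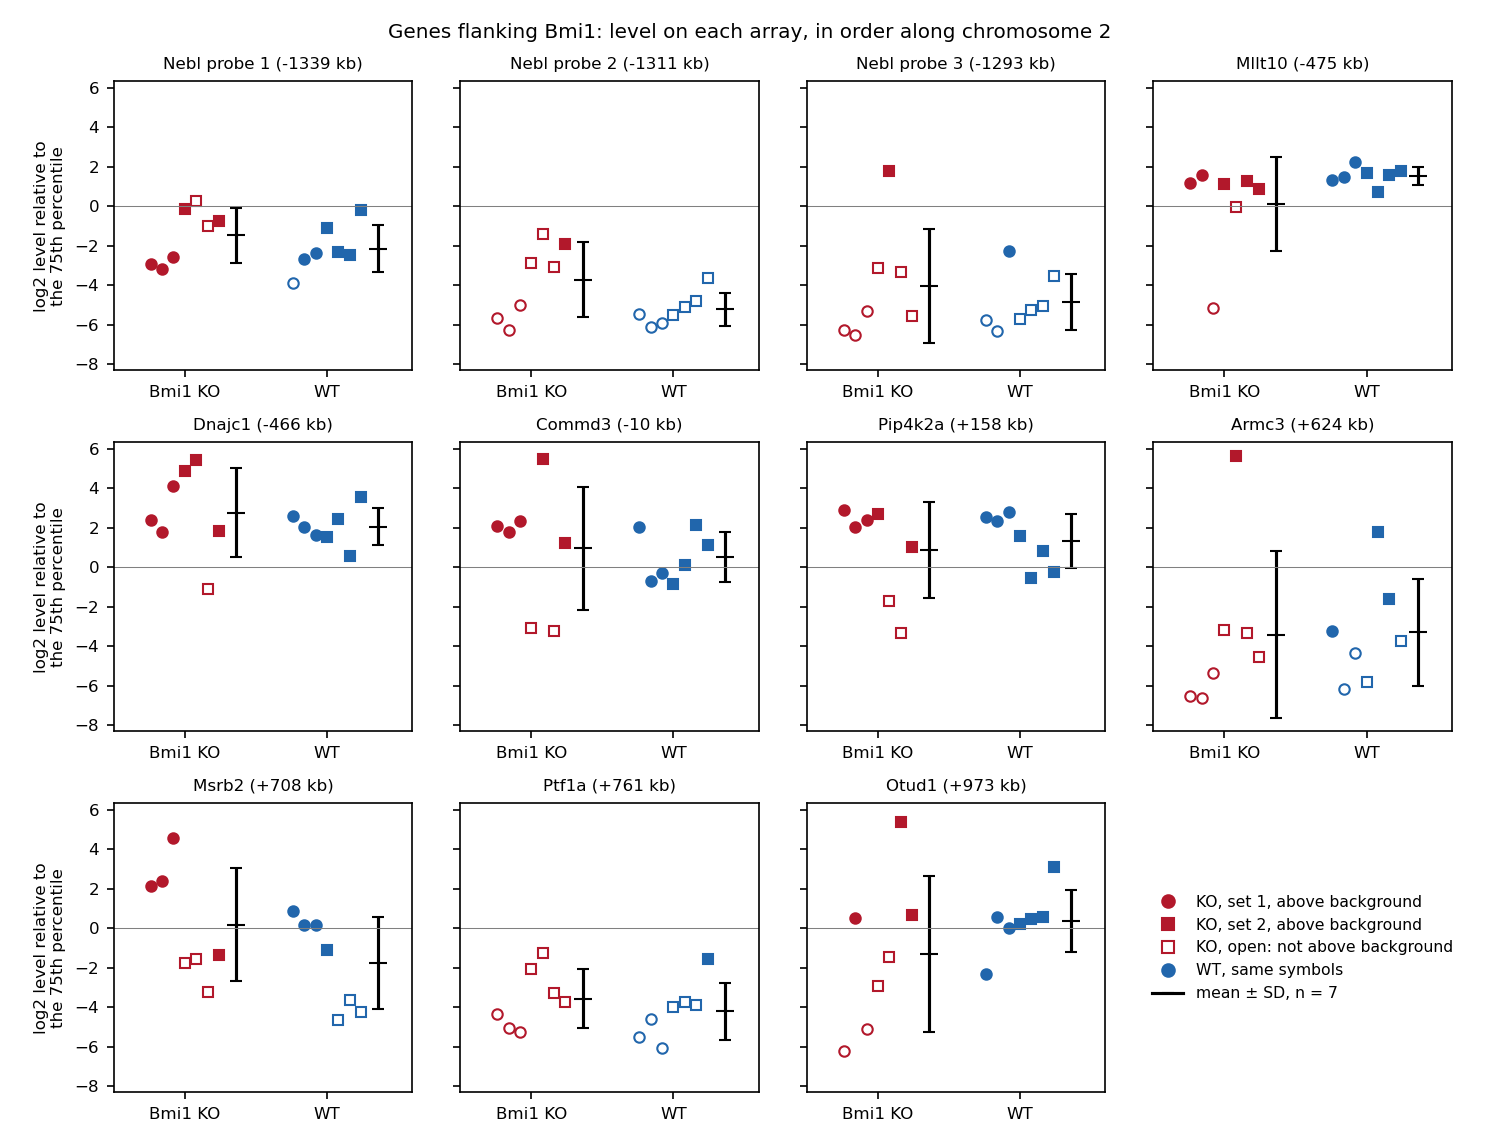
Level of each of the 11 probes on every array (log2 relative to the array's 75th percentile), with the distance from the Bmi1 probes above each panel; Bmi1 KO is on the left in red and WT on the right in blue. Circles are set 1, squares set 2, open symbols arrays on which the probe was not above background, and bars the mean and SD of 7 arrays. The SD was larger in KO than in WT for all 11 probes. The share of all probes with a larger SD in KO was not counted, so this is not read as a trait of the neighbours. Over all tested probes, pairs of KO arrays also correlated less (median r = 0.65) than pairs of WT arrays (median r = 0.79).

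Mllt10 and Ptf1a code for nuclear regulators. Mllt10 (AF10) is a cofactor of the histone methyltransferase Dot1l and a fusion partner in acute leukaemia. Its level was -5.15 at the lowest, 1.11 at the median and 1.57 at the highest in KO, and 0.74, 1.57 and 2.22 in WT. The groups overlapped, and the low end in KO was a single array, set 1 replicate 4, on which the probe was not above background. The means were 0.12 ± 2.38 in KO and 1.54 ± 0.45 in WT (SD, n = 7 each). The difference of -1.42 log2 (SE 0.88) had a 95% interval of -3.29 to 0.45 and did not pass the test (limma adjusted p = 0.434). The exact permutation p for this gene alone was 0.04. Relative to all probes the Mllt10 difference was -1.74 log2, and -0.87 without KO set 1 replicate 4. With each array's share of probes above background as a covariate it was -0.59, and without the 4 KO arrays under 40% it was -0.29.

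Ptf1a is a helix-loop-helix factor of pancreas and cerebellum. It was above background on a single array, WT set 2 replicate 4, at -1.58. The measured means were -3.57 ± 1.49 in KO and -4.20 ± 1.45 in WT (SD, n = 7 each), both within the range of dim probes. The median level of probes not above background was itself -6.31 to -1.51 on KO arrays and -6.07 to -3.99 on WT arrays. No fold is given for it.

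Commd3, Pip4k2a and Otud1 act in trafficking and signalling. Commd3 is a subunit of the Commander complex, which recycles membrane proteins from endosomes. It had -3.24 at the lowest, 1.80 at the median and 5.47 at the highest in KO, and -0.85, 0.10 and 2.15 in WT. On set 1 the KO arrays read 2.09, 1.80 and 2.36, against 2.02, -0.70 and -0.28 in WT. On set 2 the KO arrays read -3.05, 5.47, -3.24 and 1.21, against -0.85, 0.10, 2.15 and 1.11 in WT. The KO arrays of set 2 thus reached past the WT arrays on both sides, and the probe was not above background on replicates 1 and 3. The means were 0.95 ± 3.11 in KO and 0.51 ± 1.25 in WT (SD, n = 7 each). The difference was 0.44 log2 (SE 1.15, 95% interval -2.00 to 2.88; limma adjusted p = 0.868; exact permutation p = 0.756). Its size relative to all probes, 0.12 log2, became -0.62 without KO set 2 replicate 2 and 0.83 without KO set 2 replicate 3. The sign also turned under quantile normalization, among other settings, so no direction can be given for Commd3.

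Pip4k2a phosphorylates phosphatidylinositol 5-phosphate. Its level was -3.34 at the lowest, 2.03 at the median and 2.91 at the highest in KO, and -0.54, 1.56 and 2.81 in WT. The low KO values were set 2 replicates 2 and 3, on which the probe was not above background, and the other KO arrays lay within or just above the WT range. Means were 0.86 ± 2.43 in KO and 1.33 ± 1.36 in WT (SD, n = 7 each), a difference of -0.47 log2 (SE 0.80, 95% interval -2.16 to 1.23; limma adjusted p = 0.793). Relative to all probes the Pip4k2a difference was -0.79, and it changed sign to 0.31 without the 4 KO arrays under 40%. It was -0.20 without KO set 2 replicate 3, -0.40 without KO set 2 replicate 2 and -1.24 without KO set 2 replicate 1.

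Otud1 is a deubiquitinase. It had -6.23 at the lowest, -1.45 at the median and 5.36 at the highest in KO, and -2.33, 0.45 and 3.08 in WT. The KO range enclosed the WT range, with 4 of 7 KO arrays not above background. The means were -1.31 ± 3.93 in KO and 0.37 ± 1.58 in WT (SD, n = 7 each). The difference of -1.67 log2 (SE 1.26, 95% interval -4.34 to 0.99) did not pass the test (limma adjusted p = 0.509; exact permutation p = 0.266). Relative to all probes the Otud1 difference was -1.99, and it was -0.72 with normexp correction and -1.02 with the share of probes above background as a covariate.

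Dnajc1 and Msrb2 act in protein maintenance. Dnajc1 is a J-domain co-chaperone in the membrane of the endoplasmic reticulum. It had -1.12 at the lowest, 2.40 at the median and 5.44 at the highest in KO, and 0.56, 2.01 and 3.55 in WT. The KO arrays of set 1 replicate 4 and set 2 replicates 1 and 2 lay above every WT array, and KO set 2 replicate 3 below every one. The means were 2.76 ± 2.25 in KO and 2.05 ± 0.95 in WT (SD, n = 7 each), with a difference of 0.71 log2 (SE 0.91, 95% interval -1.21 to 2.62; limma adjusted p = 0.716). Relative to all probes it was 0.39, and it was near 0 or below it under quantile normalization (-0.05) and normexp correction (-0.14). Leaving out 1 array moved it between 0.033, without KO set 2 replicate 2, and 1.11, without KO set 2 replicate 3.

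Msrb2 is a mitochondrial reductase that repairs oxidised methionine. The KO arrays of set 1 read 2.15, 2.39 and 4.58, against 0.86, 0.16 and 0.15 in WT, so the groups did not overlap there. On set 2 the KO arrays read -1.75, -1.54, -3.21 and -1.34, against -1.13, -4.63, -3.65 and -4.23 in WT, and the groups overlapped through WT replicate 1. Msrb2 was above background on all 6 arrays of set 1 but on only 1 KO and 1 WT array of set 2. On KO replicates 1 to 3 of set 2, where Msrb2 was dim, the median level of probes not above background was -3.13 to -1.51. On WT replicates 2 to 4 of set 2, where Msrb2 was also dim, that median was -5.08 to -3.99. The part of this floor in the Msrb2 difference was not tested. Over both sets the means were 0.18 ± 2.84 in KO and -1.78 ± 2.33 in WT (SD, n = 7 each). The KO minus WT difference was 1.97 log2 (SE 0.68, 95% interval 0.53 to 3.39). Its unadjusted limma p of 0.0101 gave an adjusted p of 0.310, and the exact permutation p was 0.0143 for this gene alone. Relative to all probes the difference was 1.64 log2. It was 0.95 with normexp correction, 1.25 without KO set 1 replicate 4, and -0.32 on slide 2 alone, where 4 KO arrays face 2 WT arrays and most readings are dim.

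Nebl and Armc3 are known from other tissues. Nebl codes for nebulette, an actin-binding protein of the cardiac Z-disc, and Armc3 for an armadillo-repeat protein known from testis. The Nebl probe that entered the test had -3.19 at the lowest, -0.98 at the median and 0.25 at the highest in KO, and -3.88, -2.36 and -0.20 in WT. The KO values lay within or just above the WT range, so the groups overlapped. The difference was 0.67 log2 (SE 0.57, 95% interval -0.53 to 1.87; limma adjusted p = 0.559). The Nebl probe at chr2:17296660-17296719 averaged -3.73 ± 1.90 in KO and -5.21 ± 0.83 in WT (SD, n = 7 each; exact permutation p = 0.0129). It was above background on 0 WT arrays and on 1 KO array, so no fold is given. The median level of probes not above background was -3.13 to -1.51 on KO replicates 1 to 3 of set 2. On WT arrays that median was -6.07 to -3.99, and the part of this floor in the permutation p was not tested. The third Nebl probe, at chr2:17314550-17314609, averaged -4.05 ± 2.88 in KO and -4.85 ± 1.44 in WT (SD, n = 7 each; exact permutation p = 0.559). The KO readings of the third probe included a single array at 1.76, set 2 replicate 2, and its difference was -1.24 log2 within set 1.

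Armc3 averaged -3.42 ± 4.23 in KO and -3.30 ± 2.72 in WT (SD, n = 7 each; exact permutation p = 0.943). A single KO array, set 2 replicate 2, reached 5.65, and the highest WT array reached 1.79. The other KO arrays were not above background.

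Within each set the differences were estimated with a shared spread. Mllt10 had -2.47 log2 (SE 1.35) in set 1 and -0.63 (SE 1.17) in set 2. For Otud1 they were -3.01 (SE 1.95) and -0.67 (SE 1.69), and for Pip4k2a -0.12 (SE 1.25) and -0.72 (SE 1.09). Each of these 3 genes had the same sign in both sets. Msrb2 had 2.65 (SE 1.03) in set 1 and 1.45 (SE 0.89) in set 2. Dnajc1 had 0.67 (SE 1.43) and 0.73 (SE 1.24), and Nebl 0.07 (SE 0.85) and 1.12 (SE 0.74). Commd3 was the 1 gene with opposite signs, 1.74 (SE 1.77) in set 1 and -0.53 (SE 1.53) in set 2. The median of all probes was -0.04 log2 in set 1 and 0.71 in set 2. Relative to it, set 1 before set 2, Dnajc1 had 0.72 and 0.02, Nebl 0.11 and 0.41, and Msrb2 2.69 and 0.74. Mllt10 had -2.43 and -1.34, Otud1 -2.97 and -1.38, Pip4k2a -0.08 and -1.43, and Commd3 1.78 and -1.24. The change of the difference between sets was tested directly: 0 of 7 genes had an adjusted p under 0.05 (lowest 0.877), against 0% of all probes. At an unadjusted p under 0.05 it was again 0 of 7, against 5.36% of all probes. The SEs of this change, 1.13 to 2.57 log2, leave room for sizeable differences.

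**Figure D3:**
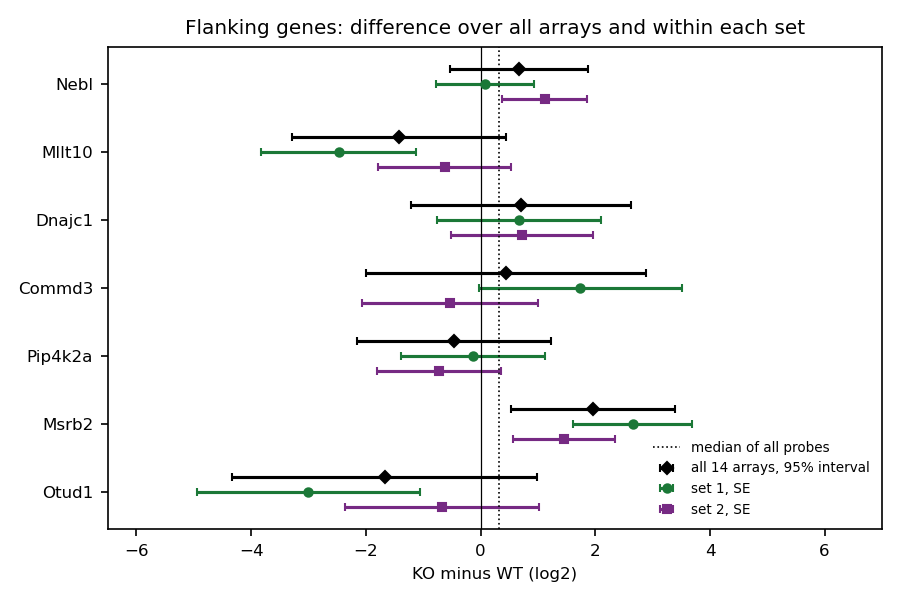
KO minus WT difference (log2, horizontal axis) of the 7 tested genes over all 14 arrays (black, 95% interval) and within set 1 (green) and set 2 (purple, both with SE). The dotted line is the median of all probes over all 14 arrays, 0.32. That median was -0.04 within set 1 and 0.71 within set 2. The interval over all arrays excludes 0 for Msrb2 alone, before adjustment over all probes.

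Levels were also compared between the sets, and no gene passed the test. Msrb2 averaged -2.68 in set 2 and 1.71 in set 1, a difference of -4.40 log2 (SE 0.68), with an unadjusted p of 7.09e-06 and a limma adjusted p of 0.053. Pip4k2a differed by -2.48 log2, set 2 minus set 1 (SE 0.81, limma adjusted p = 0.158). The Nebl difference was 1.97 log2 (SE 0.57, limma adjusted p = 0.126), and that of Otud1 2.84 log2 (SE 1.27, limma adjusted p = 0.264). The median of this difference over all probes was 0.59 log2. These 4 of 7 genes had an unadjusted p under 0.05 for the level between sets, against 17.6% of all probes, and no probe of the 29679 passed an adjusted p under 0.05. Set and slide cannot be told apart, since set 1 lay on a slide of its own. In set 2, WT replicates 2 and 4 lay on slide 3, which held no KO array, and the other arrays on slide 2. Genotype and slide are thus partly mixed within set 2. With slide as a block 0 neighbours and 8 probes in all passed. Relative to all probes, the neighbour median was then 0.39 and Msrb2 1.34.

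Nor did any other probe placed between Nebl and Otud1 pass the test. Bmi1 aside, there were 21 such probes under 18 gene names. Of these, 11 entered the test and 0 passed it, and 0 had an unadjusted limma p under 0.05. The unnamed minus-strand transcript AK149769 (chr2:18427300-18427359) was above background on all 14 arrays, at 8.52 ± 1.32 in KO and 7.48 ± 0.57 in WT (SD, n = 7 each). Its difference was 1.04 log2 (SE 0.56, limma adjusted p = 0.385; exact permutation p = 0.0257). The adjoining AK139292 probes at chr2:18194525-18194644, also above background on all 14 arrays, differed by 0.20 and 1.24 log2 (limma adjusted p = 0.878 and 0.371). The difference between these 2 adjoining probes was not tested. Whether the letters of the AK149769 and AK139292 probes also occur elsewhere in the genome was not tested, so their signal may not come from this interval alone.

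Spag6, a protein of the sperm flagellum listed under its old name BC061194, was dim, with each of its probes above background on 1 KO and 0 WT arrays. Skida1 was above background on 1 KO and 2 WT arrays, and H2afb1 (now H2al2a) on 2 KO and 6 WT arrays. The transcript 4930426L09Rik was above background on 1 KO array and 0 WT arrays.

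Low p-values were counted by distance from Bmi1 along chromosome 2, with the Bmi1 probes themselves left out. Within 0.5 Mb 0 of 7 tested probes had an unadjusted p under 0.05, and from 0.5 to 2 Mb 1 of 14 had. The shares were 12.2% of 41 probes from 2 to 5 Mb, 7.69% of 182 from 5 to 10 Mb, and 13.4% of 1996 beyond 10 Mb. Median differences relative to all probes were 0.12, 0.36, -1.09, 0.02 and -0.04 log2 in the same order. No probe within 10 Mb passed an adjusted p under 0.05. The Bmi1 probe at chr2:18607987-18608046 had an unadjusted limma p of 0.0005, below that of every other probe within 10 Mb. Among the others the smallest p-values belonged to Ralgds, Msrb2 and Pfkfb3. Ralgds, an exchange factor for Ral GTPases 9.8 Mb away, differed by 2.45 log2 (limma adjusted p = 0.299). Pfkfb3, a glycolytic regulator, differed by -3.10 log2 on this probe (limma adjusted p = 0.318). Another tested Pfkfb3 probe had the opposite sign, 0.46 log2 (limma adjusted p = 0.787).

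**Figure D4:**
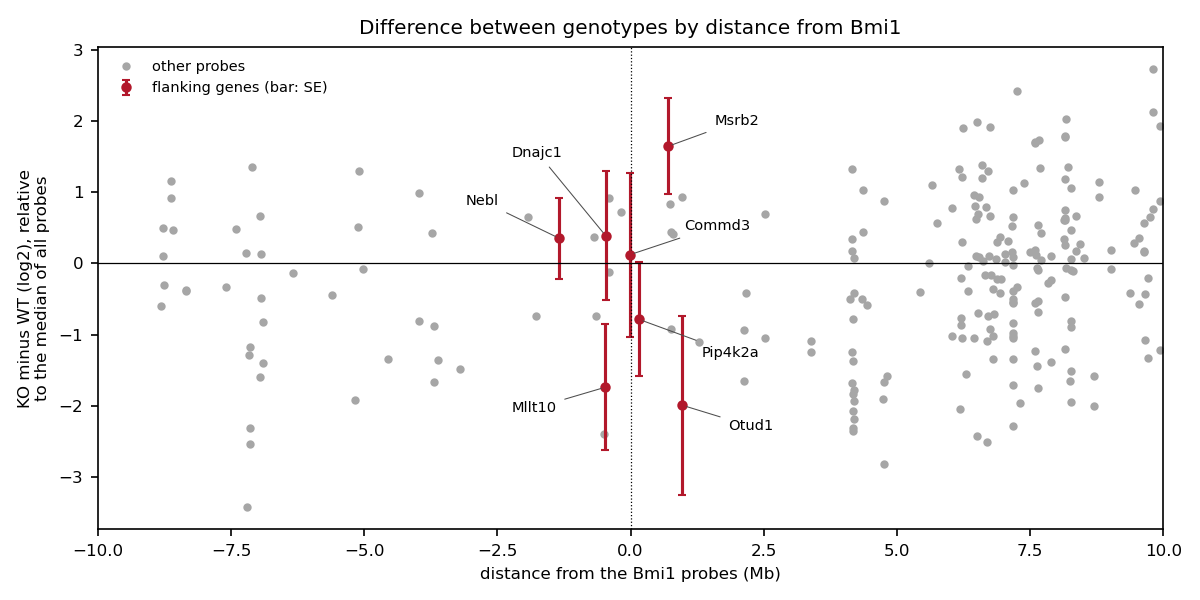
KO minus WT difference relative to the median of all probes (log2) against distance from the Bmi1 probes (Mb) for every tested probe within 10 Mb on chromosome 2, without Bmi1 itself; red marks the 7 tested flanking genes with their SE, grey the other probes. The red points spread on both sides of 0, from Otud1 at -1.99 to Msrb2 at 1.64, within the range of the grey points.

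For the 4 neighbours with the broadest detection, the genes whose level followed them most closely over the 14 arrays were listed among 11458 genes. Commd3 was most like Eif2b1, a subunit of the translation factor eIF2B (Pearson r = 0.95), and Mrpl18, a mitochondrial ribosomal protein (r = 0.94). Mllt10 was most like the sodium-proton exchanger Slc9a7 (r = 0.92) and the semaphorin Sema4b (r = 0.91). Dnajc1 was most like the cytokine Mif (r = 0.95) and the small GTPase Rab14 (r = 0.95), and Pip4k2a like the RNA helicase Ddx47 (r = 0.88) and Nt5c3l (r = 0.87). None of these genes lies among the neighbours. The points share the arrays and their unequal signal, and the highest of many correlations is high by choice.

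All 9 genes were found in RefSeq's promoter table (GRCm38.p6), which gives 250 bases before and 50 after each start. The dinucleotide CG, which reads alike on both strands, was counted in the window that held most. Pip4k2a held 52, Commd3 51 and Mllt10 43, counts reached by 0.662%, 0.825% and 2.97% of 27025 genes. Otud1 held 33 and Nebl 32 (reached by 9.55% and 10.6%), Ptf1a 23 (23.5%), Dnajc1 15 (37.1%), Msrb2 9 (48.1%) and Armc3 8 (51%). The median gene held 8. Among the genes detected on all 7 WT arrays, Dnajc1 thus had the fewest and Pip4k2a the most, and Ptf1a, detected on 1 WT array, lay between them. The 250 bases before the start are printed for Commd3, the nearest neighbour, with 45 CG, and for Msrb2, with 7. Capitals mark each CG. A count of letters says nothing of binding by Bmi1 in these cells.
Commd3, chromosome 2, plus strand: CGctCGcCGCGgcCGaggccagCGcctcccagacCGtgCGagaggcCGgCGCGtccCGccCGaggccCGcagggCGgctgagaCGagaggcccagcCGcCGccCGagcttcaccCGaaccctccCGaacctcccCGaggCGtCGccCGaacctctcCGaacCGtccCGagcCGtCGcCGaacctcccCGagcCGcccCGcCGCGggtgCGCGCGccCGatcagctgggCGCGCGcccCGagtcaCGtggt
Msrb2, chromosome 2, plus strand: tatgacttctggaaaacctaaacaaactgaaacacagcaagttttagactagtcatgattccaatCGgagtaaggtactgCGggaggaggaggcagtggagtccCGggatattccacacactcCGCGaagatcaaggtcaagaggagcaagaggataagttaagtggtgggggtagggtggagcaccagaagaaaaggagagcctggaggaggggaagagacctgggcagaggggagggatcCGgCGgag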

How the data were processed

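The spot intensity values come from Agilent Feature Extraction, version 10.7.3.1 per the file headers and named without a version in the submitters' notes, in 1 colour (Cy3), with probes placed on mm9. Other columns, per the file headers, mark a spot 0 or 1 as above background, as saturated or as an outlier. A deposited table of log2 values has the same distribution in every column and a column median of 3.95. It followed the scanner signal of each array (lowest Spearman rho 0.999), its centring is not stated, and it was used as an alternative.

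From the scanner files, log2 processed signal minus each array's 75th percentile was computed over 59305 non-control spots without outliers, and spots of a probe were averaged. Probes above background on at least 4 of 7 arrays of either genotype were tested with limma 3.58.1 (R 4.3.3), with genotype and set as terms and Benjamini-Hochberg adjustment over all 29679 probes. Single genes were also tested by exact two-sided permutation of genotype within sets (1400 arrangements), unadjusted. Within-set values came from a model with a mean per genotype and set. The number of arrays limits the precision. The members and all lists were chosen with earlier results of these data known. Named genes were the 9 members, Bmi1, the named genes between them, and the 3 smallest p-values within 10 Mb, Bmi1 aside (none passed the threshold). The 2 most alike genes for each of Commd3, Mllt10, Dnajc1 and Pip4k2a were also named. Alternatives changed the scaling, background correction, filter, covariates, blocks and arrays left out. Deviations of same-numbered KO and WT samples from their group means correlated at -0.22 to 0.19, which does not settle whether samples were paired.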

Additional observations from a re-analysis of the deposited data

Results flagged for a closer look

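For each of the 11 probes, the 7 arrays of each genotype were searched for 1 array far from the rest, by Dixon's ratio of its gap to the group's range against its 95% critical value, which chance passes in about 5% of groups. Of 22 groups, 3 passed it, all in KO. Each group pooled the 2 sets, and the share passing over all probes was not computed. The 3 are therefore not read as a trait of the neighbours. Mllt10 read -5.15 on KO set 1 replicate 4 (ratio 0.761), where it was not above background. Armc3 read 5.65 on KO set 2 replicate 2 (ratio 0.719), and the Nebl probe at chr2:17314550-17314609 read 1.76 on that same array (ratio 0.591). Both were above background there, and that array had the smallest share of probes above background, 20.6%.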

How the results depend on the processing

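None of the 7 tested neighbours passed under any of 29 alternatives (28 for Nebl and Msrb2, whose probes dropped out of the strictest filter). Armc3, Ptf1a and the other Nebl probes were tested only with no filter on dim probes, and did not pass there. The lowest adjusted p was 0.162 for Msrb2, 0.215 for Mllt10 and 0.292 to 0.619 for the other 5 genes. Mllt10 and Otud1 kept their sign relative to all probes in all 29, at -2.43 to -0.29 and -2.97 to -0.72. Differences below are relative to all probes. Commd3 turned to -0.17 under quantile normalization and -0.17 with the deposited values, -0.26 with no filter, -0.0029 with probes above background on all 7 arrays of a genotype, -0.025 with 1 probe per gene name, -0.20 with the share of probes above background as a covariate, -1.24 in set 2 alone and -1.31 on slide 2 alone (a setting chosen after seeing the data). Dnajc1 turned to -0.048 under quantile normalization, -0.048 with the deposited values, -0.14 with normexp, -0.00053 with no filter and -0.25 with the share as a covariate. Nebl turned to -0.035 with no filter, Pip4k2a to 0.31 without the 4 KO arrays under 40%, and Msrb2 to -0.32 on slide 2 alone. The causes were not tested. Leaving out 1 array moved Commd3 between -0.62 and 0.83, Dnajc1 between 0.033 and 1.11, and Pip4k2a between -1.24 and -0.20. The median of the neighbours, 0.12, became -0.91 with the filter of all 7 arrays (5 probes left), -1.24 in set 2 alone, -0.74 on slide 2 alone, and -0.40 to 0.45 with 1 array left out.

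The count over all probes, 9 (1 higher, 8 lower), was 141 (1 higher, 140 lower) when scaled to the 7057 probes above background on all arrays, which also moved the median of all probes to -0.86. It was 26 under quantile normalization, 26 with the deposited values, 39 with normexp, 21 with the all-array filter, 5 with 1 probe per gene name, 5 without the 4 dim KO arrays, 4 in set 2 alone and 1 on slide 2 alone. It ranged over 5 to 65 with 1 array left out, at 65 without KO set 1 replicate 3 and 37 without KO set 2 replicate 4. The labels do not say whether the replicate numbers pair KO and WT samples. Same-number correlations were -0.22 to 0.19, and with so few arrays per group they cannot exclude pairing. With a replicate block 8 probes and 0 neighbours passed, with a neighbour median of 0.12. Dim signal limits these results: 4 of the 11 probes were too dim to test, and Msrb2 was dim on most arrays of set 2.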
